A study of Mus musculus with 14 samples.

Results

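Atf4 encodes activating transcription factor 4, the transcription factor through which mammalian cells answer a shortage of amino acids. It was followed as its single listed transcript, ENSMUST00000109605, which is 1 of the 1399 transcripts that all 14 count tables of the series list, and it was taken by matching Ensembl transcript identifiers to gene symbols. Polyadenylated RNA was sequenced from wild-type mouse embryonic fibroblasts (MEFs), cultured connective tissue cells, in 7 groups of 2 libraries. The groups were untreated cells (NT), cells starved of cysteine (Cys), cells starved of every amino acid (AA), a further untreated group (NT2), cells given cysteamine (Cysteamine), cells transfected with a short hairpin RNA against CTNS (CTNS-KD), and cells that received this hairpin together with a CTNS plasmid (CTNS-KD-rescue). CTNS encodes cystinosin, a lysosomal carrier that exports cystine, and the drug cysteamine depletes the cystine held in lysosomes; the title of the series places these treatments in a study of lysosomal cystine, the cellular response to cysteine and ferroptosis, an iron-dependent form of cell death. The labels gave every library the same wild-type genotype and did not state doses, starvation times, whether the hairpin and plasmid were expressed stably, whether an empty vector was given to NT2, or whether paired libraries were grown as distinct cultures; every p-value therefore measures a spread between libraries that may be technical. The labels also did not tie either untreated group to a treatment. NT was taken as the control of both starvations (the first experiment, 6 libraries, whose column headers share a prefix) and NT2 as the control of the other groups (the second experiment, 8 libraries). The transcript of Ctns itself was not analysed here, so the knockdown and its rescue were not checked at their target.

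Atf4 is controlled mainly at translation. When amino acids run short, uncharged transfer RNA activates the kinase Gcn2, which phosphorylates the initiation factor eIF2; most protein synthesis then falls while ribosomes pass the inhibitory upstream reading frames of the Atf4 messenger and translate its coding sequence. The protein, paired with C/EBP family members and other basic leucine zipper factors, binds composite sites in the genes of amino acid transporters, amino acid and one-carbon synthesis enzymes, aminoacyl-tRNA synthetases and stress factors. Transcription of Atf4 and decay of its messenger also set its level, and counts of the messenger, as measured here, do not show the translational step.

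The listed transcript is 1 of 3 that GENCODE M21 gives for Atf4 (ENSMUSG00000042406). On the mouse assembly GRCm38 it lies on the plus strand of chromosome 15, from 80255184 to 80257541. Its 3 exons, of 502, 315 and 908 nucleotides, make a messenger of 1725 nucleotides. The coding sequence runs from nucleotide 595 to 1644 and holds 349 codons before its stop. Upstream of it the transcript carries 3 reading frames that begin with AUG, of 36, 3 and 59 codons. The last of these starts at nucleotide 498 and ends at 677, so that it overlaps the coding start by 83 nucleotides in another frame, which is the arrangement that makes translation of Atf4 conditional.

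Promoter sequences are shown for Atf4 and for the synthetase genes Aars and Yars, which alone held the Atf4 composite motif among the 12 measured target genes with a promoter in the RefSeq table. Each runs from 250 bases before to 50 bases after the transcription start, on GRCm38.p6, as RefSeq gives it. The motif searched was TGATGNAA on both strands, and capitals mark its matches. The Atf4 promoter is chr15:80254934-80255233, the Aars promoter chr8:111033592-111033891 and the Yars promoter chr4:129189653-129189952, all plus strand.
Atf4: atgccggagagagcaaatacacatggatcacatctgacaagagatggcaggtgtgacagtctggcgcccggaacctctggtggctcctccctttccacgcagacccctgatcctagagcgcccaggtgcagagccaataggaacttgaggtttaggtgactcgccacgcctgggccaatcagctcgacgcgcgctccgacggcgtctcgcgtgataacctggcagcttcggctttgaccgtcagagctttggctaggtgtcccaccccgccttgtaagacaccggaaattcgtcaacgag
Aars: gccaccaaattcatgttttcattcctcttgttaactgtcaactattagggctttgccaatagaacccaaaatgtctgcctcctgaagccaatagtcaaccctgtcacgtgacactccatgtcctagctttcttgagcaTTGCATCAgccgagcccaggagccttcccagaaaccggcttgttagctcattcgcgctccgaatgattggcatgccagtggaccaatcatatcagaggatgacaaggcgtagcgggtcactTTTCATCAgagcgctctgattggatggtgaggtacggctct
Yars: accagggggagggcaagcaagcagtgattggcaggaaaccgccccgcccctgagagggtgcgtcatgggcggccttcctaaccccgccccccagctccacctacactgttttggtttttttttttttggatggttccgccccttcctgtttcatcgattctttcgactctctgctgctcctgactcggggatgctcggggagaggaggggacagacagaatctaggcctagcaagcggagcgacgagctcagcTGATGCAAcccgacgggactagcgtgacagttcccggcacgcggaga
Aars holds 1 match that begins 112 bases before the start and 1 that begins at base 10 after it, both on the minus strand. Yars holds 1 on the plus strand, beginning at base 4. Atf4 holds none in this window. The motif was found in 1304 of 32851 mouse promoters of the same length (3.97%) and in 2 of the 13 promoters (15.4%) matched to those 12 of the 18 measured target genes; a match is a description of the letters and not a binding site.

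The tables were shallow, and the first experiment more so than the second. The 1399 transcripts together held 25697 to 51224 counts per library of the first experiment, with a median of 3 to 16 per transcript. Libraries of the second held 64530 to 165747, with a median of 22 to 61. A block of 347 transcripts, here called tracking transcripts because their share in NT over that in NT2 was more than 2 times the median of this ratio, took very different parts of the libraries: 63.8% and 86.9% in NT, 37.9% and 57.6% in Cys, 82.9% and 78.8% in AA, 9.49% and 9.70% in NT2, 17.5% and 16.4% in Cysteamine, 32.7% and 32.0% in CTNS-KD, and 41.9% and 39.5% in CTNS-KD-rescue. Atf4 is not among them. Because NT and NT2 define this block, a fit without it is no independent check of a comparison that holds both. Of 15 fibroblast markers fixed for the check of the cell type, 10 were listed, Col1a1, Col1a2, Col3a1, Fn1 and Vim among them, and they summed to between 0.658% and 5.92% of a library. Of the markers of other tissues, only Cdh1 (epithelium), Ctrb1 (pancreas) and Ttn (muscle) were listed, each at no more than 0.0930% of a library. Markers of blood, endothelium and nervous tissue were outside the listed transcripts, which all have at least 1 count in every library.

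Atf4 was counted in all 14 libraries, with 4 to 71 counts per library of the first experiment and 28 to 165 per library of the second. Its level is given in CPM, counts per 1000000 of library totals that edgeR's TMM method, a trimmed mean of log ratios between libraries, had scaled. NT stood at 466 and 392 CPM, from 13 and 4 counts. Cys stood at 1172 and 726 CPM, from 71 and 29 counts, and both libraries lay above both NT libraries. AA stood at 272 and 572 CPM, from 4 and 13 counts, on either side of NT. NT2 stood at 622 and 610 CPM, from 157 and 126 counts. Cysteamine stood at 640 and 734 CPM, from 120 and 165 counts, both just above NT2. CTNS-KD stood at 527 and 429 CPM, from 70 and 47 counts. CTNS-KD-rescue stood at 313 and 347 CPM, from 33 and 28 counts, and both of its libraries lay below every other library of the second experiment. As a share of all counts, Atf4 ranged from 0.0130% (95% Wilson interval 0.00505% to 0.0334%) in AA replicate 1 to 0.139% (0.110% to 0.175%) in Cys replicate 1; these intervals cover counting error only, and reads without molecular identifiers are not independent molecules.

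Ordered by mean ± SD (n = 2), the level was highest in Cys at 949 ± 315 CPM. Cysteamine followed at 687 ± 66.1, NT2 at 616 ± 8.24, CTNS-KD at 478 ± 69.3, NT at 429 ± 52.1, AA at 422 ± 212 and CTNS-KD-rescue at 330 ± 24.1 CPM. The libraries overlapped between the neighbours Cys and Cysteamine, CTNS-KD and NT, NT and AA, and AA and CTNS-KD-rescue. They did not overlap between Cysteamine and NT2 or between NT2 and CTNS-KD. The order joins experiments that differ in depth and composition. Relative to the 50 ribosomal protein transcripts, Atf4 gave 16.5 and 24.4 counts per 1000 ribosomal counts in NT, 34.0 and 21.2 in Cys, and 12.4 and 18.0 in AA. It gave 13.8 and 13.6 in NT2, 10.7 and 11.9 in Cysteamine, 14.9 and 12.4 in CTNS-KD, and 9.90 and 10.9 in CTNS-KD-rescue. On this scale Cys replicate 2 fell between the NT libraries, CTNS-KD spanned NT2, and Cysteamine lay below NT2. CTNS-KD-rescue also lay below NT2 but overlapped Cysteamine.

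**Figure D1:**
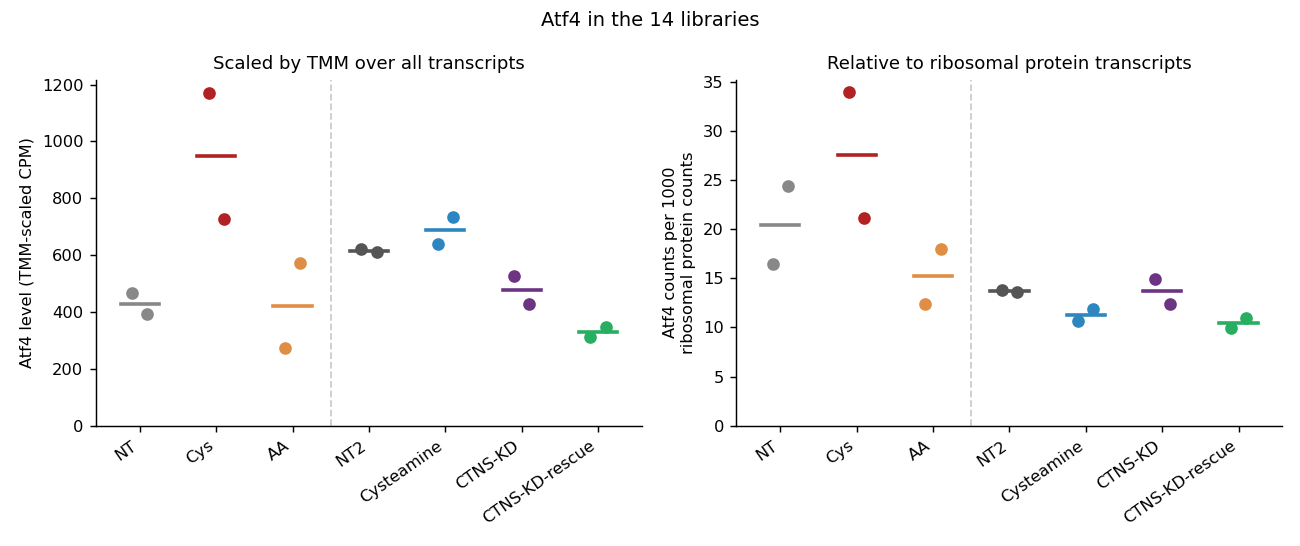
Atf4 in each library (points) with the mean of each group (bars), as TMM-scaled CPM on the left and as counts per 1000 ribosomal protein counts on the right; the dashed line separates the first from the second experiment. Cys replicate 1 was highest on both scales, at 1172 CPM and 34.0 per 1000, and the CTNS-KD-rescue libraries were the lowest of the second experiment on the left, at 313 and 347 CPM.

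Cysteine starvation addressed whether loss of this amino acid alone moves the Atf4 messenger. Both Cys libraries lay above both NT libraries, at a log2 fold change of 1.14 ± 0.37 (SE; 95% interval 0.36 to 1.91). The difference did not pass the test over all transcripts (adjusted p = 0.123). The SE, here as in every comparison, rests on a spread estimated over all 14 libraries. Over all transcripts, paired libraries differed by 4.22 (NT) and 4.55 (Cys) times the counting variance, against 1.55 to 1.95 in the second experiment. Intervals of the starvations may therefore be too narrow. No transcript passed in this comparison with edgeR's quasi-likelihood test under TMM or with limma, where 230 and 350 of 1399 had an unadjusted p under 0.05, while DESeq2 called 11 higher and 49 lower, Atf4 not among them. That count of 0 changed with single libraries and settings: edgeR called 18 higher and 94 lower without NT replicate 1, 17 and 48 without Cys replicate 2, 29 and 2 with library totals, and 13 and 67 with the replicate number as a block. With library totals in place of TMM the difference was 1.83 and passed (adjusted p = 0.0356), and without Cys replicate 2 it also passed (1.39, adjusted p = 0.0354); NT carried 63.8% and 86.9% tracking counts against 37.9% and 57.6% in Cys, and the part of this difference in the result was not tested.

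Full amino acid starvation did not separate from NT. The log2 fold change was 0.02 ± 0.49 with a 95% interval from -1.02 to 1.06 (adjusted p = 0.9997), on 17 counts in each group, and this interval takes in changes of 1 log2 unit either way. Its sign turned negative under library totals (-0.34), ribosomal protein scaling (-0.17) and limma (-0.11), and ranged from -0.71 to 0.36 when a library was left out. Across the starvations, Cys stood above AA by 1.11 ± 0.37 (0.34 to 1.89) without overlap, at adjusted p = 0.0509. This value sat at the threshold, which 210 of 1399 transcripts (15%) passed. The difference ranged from 0.68 to 1.85 when a library was left out and passed without Cys replicate 2, NT replicate 1, NT replicate 2 or AA replicate 2. It also passed with library totals (2.18, adjusted p = 0.00305). That scaling called 474 of 1399 transcripts higher and 74 lower, and moved the median of all transcripts from 0.05 to 1.09.

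Cysteamine against NT2 did not pass the test for Atf4. The log2 fold change was 0.16 ± 0.19 (-0.24 to 0.56; adjusted p = 0.618). Under ribosomal protein scaling the value was -0.28. In this comparison 147 of 1399 transcripts (10.5%) passed. Because RNA was pooled from whole cultures, fewer cells of a kind and less RNA per cell cannot be told apart in any value given here.

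Knockdown of CTNS gave levels below NT2 that did not pass the test. Both CTNS-KD libraries lay below both NT2 libraries, at a log2 fold change of -0.36 ± 0.21 (-0.81 to 0.093; adjusted p = 0.213), in a comparison where 431 of 1399 transcripts (30.8%) passed. With ribosomal protein scaling the value was 0.00, with NT as the control it was 0.11, and when only the second experiment was fitted it passed at -0.44 (adjusted p = 0.0273). Against Cysteamine the difference was -0.52 ± 0.21 (-0.96 to -0.069; adjusted p = 0.0846), and it became 0.28 under ribosomal protein scaling.

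CTNS-KD-rescue had the lowest group mean of Atf4 after TMM scaling, and its differences from NT2 and Cysteamine passed, though not under every alternative. AA replicate 1 (272 CPM) lay below both of its libraries, and as a mean share of counts AA (0.0210%) and NT (0.0269%) lay below it (0.0405%). Against NT2 the level was 1.87-fold lower, a log2 fold change of -0.91 ± 0.24 (-1.41 to -0.40; adjusted p = 0.00908), and against Cysteamine it was 2.09-fold lower, -1.07 ± 0.24 (-1.57 to -0.56; adjusted p = 0.00416). In these comparisons 180 and 207 of 1399 transcripts (12.9% and 14.8%) passed as lower. The rescue asks whether the CTNS plasmid returns a level to that of NT2. For Atf4 the mean lay farther from NT2 with the plasmid than without it, and CTNS-KD-rescue against CTNS-KD stood at -0.55 ± 0.26 (-1.10 to 0.0021; adjusted p = 0.448), without overlap and in a comparison where 9 transcripts (0.643%) passed, all of them higher. Both calls were lost under ribosomal protein scaling, where the values were -0.40 (adjusted p = 0.19) against NT2 and -0.12 (adjusted p = 0.656) against Cysteamine, and with limma (adjusted p = 0.207 and 0.151). The call against NT2 was also lost with NT and NT2 (-0.67, adjusted p = 0.148) or NT alone (-0.44, adjusted p = 0.623) as the control, and without NT2 replicate 1 (adjusted p = 0.0579) or CTNS-KD-rescue replicate 1 (0.089), and the call against Cysteamine without Cysteamine replicate 2 (0.0503) or CTNS-KD-rescue replicate 1 (0.0537).

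Scaling moved every transcript at once, so Atf4 was also set against the median transcript of each comparison. Ribosomal protein scaling shifted the median log2 fold change of all transcripts from 0.09 to 0.45 in CTNS-KD against NT2, from -0.01 to 0.49 in CTNS-KD-rescue against NT2, from 0.13 to -0.31 in Cysteamine against NT2 and from 0.01 to -0.48 in Cys against NT; library totals shifted the last to 0.70. Under TMM and relative to that median, Atf4 stood at -0.90 in CTNS-KD-rescue, -0.45 in CTNS-KD and 0.03 in Cysteamine against NT2, and at 1.12 in Cys against NT. Another scaling leaves these differences nearly as they are by its construction, so they say nothing about the calls it ends. Without the tracking transcripts they were -0.71, -0.23, 0.14 and 0.94. Ribosomal protein transcripts took 6.91 ± 0.0667% of counts in NT2, 8.42 ± 0.184% in Cysteamine, 4.76 ± 0.000355% in CTNS-KD and 3.88 ± 0.127% in CTNS-KD-rescue (SD, n = 2); that Atf4 and these transcripts were low in the same groups was measured, and whether one bears on the other was not tested.

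**Figure D2:**
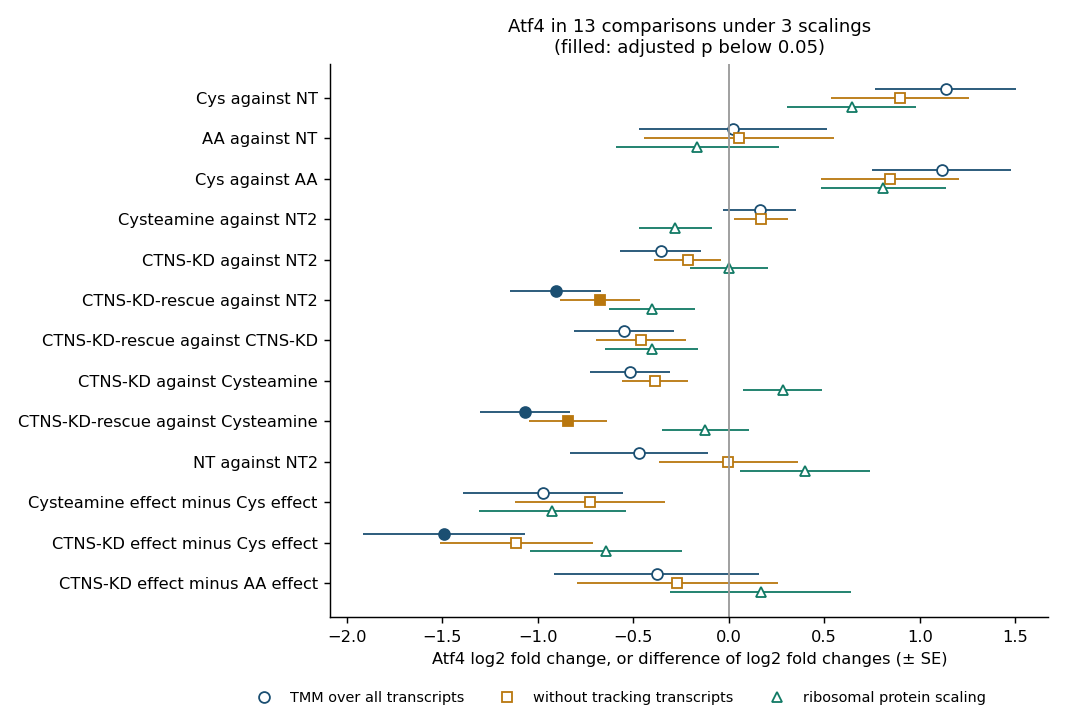
Log2 fold change of Atf4, or difference of log2 fold changes, in each of 13 comparisons (points) with its SE (lines) under TMM, TMM without the tracking transcripts, and ribosomal protein scaling; filled points have an adjusted p below 0.05. CTNS-KD-rescue against NT2 lay at -0.91, -0.67 and -0.40 under the 3 scalings, and AA against NT lay at 0 within its SE under each.

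The responses of Atf4 in the second experiment were compared directly with its response to starvation. The change with CTNS-KD (over NT2) was lower than the change with Cys (over NT) by 1.49 ± 0.42 on the log2 scale, a difference of -1.49 (-2.39 to -0.59; adjusted p = 0.0204), in a comparison where 100 of 1399 transcripts (7.15%) passed as lower. The call was lost under ribosomal protein scaling (-0.64, adjusted p = 0.285), which moved the median of all transcripts from -0.02 to 0.82, with limma (adjusted p = 0.102) and without tracking transcripts (-1.11, adjusted p = 0.1). It was also lost in 5 of the 14 fits that left out a library: NT replicate 1 or 2, Cys replicate 1, NT2 replicate 1 or CTNS-KD replicate 2 (adjusted p up to 0.132). The change with Cysteamine was below that with Cys by -0.97 ± 0.42 (adjusted p = 0.181), and the change with CTNS-KD below that with AA by -0.38 ± 0.54 (adjusted p = 0.806). The untreated groups differed by -0.47 ± 0.36 (NT against NT2; -1.24 to 0.30; adjusted p = 0.392), or by 0.40 under ribosomal protein scaling. Treatment and experiment are joined in each of these differences, and their parts cannot be told apart.

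The genes around Atf4 were read from 6 lists of 140 distinct symbols, of which 24 were listed, 18 of them target genes. Of 27 upstream sensors and initiation factors 4 were listed: Gcn1l1, the ribosome-bound activator of Gcn2, Eif2s2 and Eif2s3x, subunits of eIF2, and the growth kinase Mtor. Eif2s3x stood at 135 and 131 CPM in NT2 and at 304 and 222 in Cysteamine, and rose there by 0.97 ± 0.30 (adjusted p = 0.0482) beside 5.5% of all transcripts; the call was lost in 7 of the 14 fits that left out a library, those of NT2, Cysteamine and CTNS-KD and CTNS-KD-rescue replicate 1 (adjusted p up to 0.33). It was also lost under ribosomal protein scaling (0.54, adjusted p = 0.294), with library totals (adjusted p = 0.119), with limma (0.61) and with NT as the control (0.124). In Cys against NT none passed, and Gcn1l1 (0.92 ± 0.37, adjusted p = 0.225) and Eif2s3x (0.78 ± 0.68) came nearest. In AA against NT these were Mtor (1.15 ± 0.78) and Gcn1l1 (0.22 ± 0.47). In CTNS-KD against NT2 Gcn1l1 stood at 0.44 ± 0.20 (adjusted p = 0.102) and Eif2s2 at -0.58 ± 0.30, and in CTNS-KD-rescue against NT2 Gcn1l1 stood at 0.33 ± 0.20 and Mtor at -0.63 ± 0.40. Of 34 partners, relatives and turnover factors only the coactivators Ep300 and Crebbp, histone acetyltransferases, were listed. Neither passed against NT or NT2, with log2 fold changes between -0.46 and 0.69, and Crebbp was lower in Cys than in AA by -1.04 ± 0.33 (adjusted p = 0.0462), a call that was lost with library totals (0.01), limma, the first experiment alone and the replicate block, and in 10 of 14 fits that left out a library (adjusted p up to 0.36).

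Among the transporters, 4 of 13 were listed: Slc3a2, the heavy chain shared by the cystine-glutamate exchanger and large neutral amino acid carriers, Slc38a1 and Slc38a2, which import small neutral amino acids, and Slc1a5, a glutamine carrier. Slc38a2 stood at 530 and 426 CPM in NT2, 279 and 301 in CTNS-KD, and 294 and 334 in CTNS-KD-rescue. Both groups lay below NT2. The fall passed in CTNS-KD (-0.73 ± 0.24, adjusted p = 0.0273, beside 13.2% of all transcripts called lower) and the value was -0.62 ± 0.25 in CTNS-KD-rescue (adjusted p = 0.066). The CTNS-KD call was lost without NT2 replicate 1 (adjusted p = 0.225) or either CTNS-KD library, with ribosomal protein scaling (-0.37), limma (adjusted p = 0.448) and DESeq2 (-0.68, adjusted p = 0.0712), and with NT and NT2 as the control (-0.21); with NT alone the sign turned (0.30). In the starvations Slc38a2 rested on 8 and 1 counts in NT, 40 and 14 in Cys, and 13 and 16 in AA; its values of 1.17 ± 0.48 in Cys and 1.73 ± 0.51 in AA did not pass (adjusted p = 0.227 and 0.36). Slc3a2 had 1 and 2 counts in NT, 42 and 18 in Cys, and 1 and 8 in AA, a ratio of shares of TMM-scaled totals of 7.59 (exact 95% interval 2.47 to 37.8) for Cys and 3.06 (0.762 to 17.5) for AA. These intervals cover counting error only and are no test of a difference, since libraries of NT and of Cys differed from each other by 4.22 and 4.55 times the counting variance (chi-square per degree of freedom). In the second experiment Slc3a2 stood between 0.58 and 0.64 on the log2 scale above NT2 in the 3 groups, without passing, and Slc38a1 stood at -0.40 ± 0.23 in Cysteamine (adjusted p = 0.253).

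Of the synthesis enzymes 4 of 15 were listed: Phgdh, the entry enzyme of serine synthesis, Shmt2 and Mthfd2, of the mitochondrial folate pathway, and Aldh18a1, which starts proline synthesis. Aldh18a1 stood at 364 and 334 CPM in NT2, 155 and 169 in Cysteamine, 166 and 174 in CTNS-KD, and 190 and 297 in CTNS-KD-rescue. All 6 libraries of the treated groups lay below NT2. It fell in Cysteamine by -1.10 ± 0.26 (adjusted p = 0.015, beside 5% of all transcripts called lower) and in CTNS-KD by -1.04 ± 0.29 (adjusted p = 0.0138), and the value in CTNS-KD-rescue was -0.55 ± 0.29 (adjusted p = 0.168). Both calls were lost with limma, when any library of the groups compared was left out except 1 (CTNS-KD without NT2 replicate 2), with NT (-0.57 and -0.51) or NT and NT2 (-0.83 and -0.77) as the control, and the CTNS-KD call also with ribosomal protein scaling (-0.68, adjusted p = 0.151). In Cys against NT Phgdh (1.01), Aldh18a1 (1.25) and Shmt2 (1.74 ± 0.50, adjusted p = 0.101) were above 0 and none passed. Mthfd2, which did not pass either, had 2 and 1 counts in NT against 27 and 21 in Cys and 1 and 7 in AA, a ratio of TMM-scaled shares of 6.07 (1.96 to 30.5) and 2.72 (0.652 to 15.9), again with counting error only. Aldh18a1 stood at 1.72 ± 0.54 in AA (adjusted p = 0.361). In CTNS-KD-rescue Phgdh stood at -0.43 ± 0.24.

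Of the aminoacyl-tRNA synthetases, which load transfer RNA with amino acids, 7 of 27 were listed. Aars, for alanine, whose promoter is shown above, stood at 251 and 490 CPM in NT, 1122 and 876 in Cys, and 681 and 1099 in AA. The libraries of both starvations lay above NT, with values of 1.66 ± 0.38 in Cys (adjusted p = 0.074) and 1.53 ± 0.43 in AA (adjusted p = 0.346), neither past the threshold. Lars, for leucine, had 3 and 1 counts in NT and 46 and 13 in Cys (2.44 ± 0.58, adjusted p = 0.0751). Eprs, for glutamate and proline, is the only pathway gene among the tracking transcripts; it stood at 1.03 ± 0.37 in AA against NT (adjusted p = 0.442) and was lower in Cys than in AA by -1.07 ± 0.32 (adjusted p = 0.0371, beside 12.4% of all transcripts called lower), a call lost with library totals (-0.03), ribosomal protein scaling (-1.51, adjusted p = 0.0741), limma and the first experiment alone, and in 10 of 14 fits that left out a library (adjusted p up to 0.432). Yars, for tyrosine, the other gene with the motif, stood between -0.60 and 0.17 in the comparisons with untreated cells and passed in none. In Cysteamine all 7 synthetases were below 0, from -0.60 ± 0.25 for Yars and -0.41 ± 0.19 for Aars to -0.02, and none passed. Of all transcripts 59.3% were above 0 in that comparison. In CTNS-KD 1 of the 7 synthetases passed as higher and 1 as lower, beside 17.6% and 13.2% of all transcripts, a share near that background. Sars, for serine, rose by 0.85 ± 0.25 (325 and 252 CPM in NT2, 618 and 420 in CTNS-KD; adjusted p = 0.0162), a call lost without CTNS-KD replicate 1 (0.259) or NT2 replicate 2 (0.123) and with library totals (0.67, adjusted p = 0.087), limma (adjusted p = 0.278) and NT as the control (0.145). Vars, for valine, fell by -0.75 ± 0.23 (709 and 697 CPM in NT2, 324 and 521 in CTNS-KD; adjusted p = 0.0218), a call lost without CTNS-KD replicate 1 (0.304) or either NT2 library, and with ribosomal protein scaling (-0.39), DESeq2 (-0.70, adjusted p = 0.0515), limma (0.402), NT and NT2 (-0.46) or NT (-0.16) as the control. In CTNS-KD-rescue the nearest were Vars at -0.34 ± 0.23 and Sars at 0.40 ± 0.27.

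Of 29 stress, autophagy and secreted factors 3 were listed: Sqstm1, the autophagy receptor p62, which other stress factors also induce, Vegfa, the endothelial growth factor, and Hspa9, a mitochondrial chaperone. Sqstm1 stood at 368 and 281 CPM in NT2, 795 and 725 in Cysteamine, 1522 and 1571 in CTNS-KD, and 1071 and 1140 in CTNS-KD-rescue. No library of the treated groups overlapped NT2, and the groups did not overlap each other. It rose by 1.21 ± 0.25 in Cysteamine (adjusted p = 0.00518), by 2.24 ± 0.24 in CTNS-KD (adjusted p = 2.2e-05) and by 1.75 ± 0.26 in CTNS-KD-rescue (adjusted p = 0.000124), beside 5.5%, 17.6% and 18.7% of all transcripts called higher. The last 2 calls held when any 1 library was left out and under every alternative run, whereas the Cysteamine call was lost without any library of its groups (adjusted p up to 0.124), with limma (adjusted p = 0.376), library totals (0.0627), ribosomal protein scaling (0.0728) or NT as the control (0.0934). In the same libraries Atf4 was 640 and 734, 527 and 429, and 313 and 347 CPM. Vegfa stood at 154 and 213 CPM in NT2 and 512 and 372 in CTNS-KD-rescue, and rose there by 1.30 ± 0.26 (adjusted p = 0.0013); the call was lost without CTNS-KD-rescue replicate 1 (adjusted p = 0.0552), with limma (0.0984) and with NT as the control (0.122). In Cys against NT Vegfa stood at 2.02 ± 0.47 (adjusted p = 0.074) and Hspa9 at 1.32 ± 0.41 (adjusted p = 0.115), and in AA against NT Hspa9 stood at 0.88 ± 0.48 and Sqstm1 at 0.67 ± 0.56. Vegfa was higher in Cys than in AA by 1.80 ± 0.45 (842 and 626 CPM against 340 and 132; adjusted p = 0.0148, beside 2.57% of all transcripts called higher), a call lost without Cys replicate 1 (0.123), without AA replicate 2 (0.225), with ribosomal protein scaling (1.49, adjusted p = 0.0776), without tracking transcripts (1.53, adjusted p = 0.101) and with the first experiment alone (1.83, adjusted p = 0.0604).

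**Figure D3:**
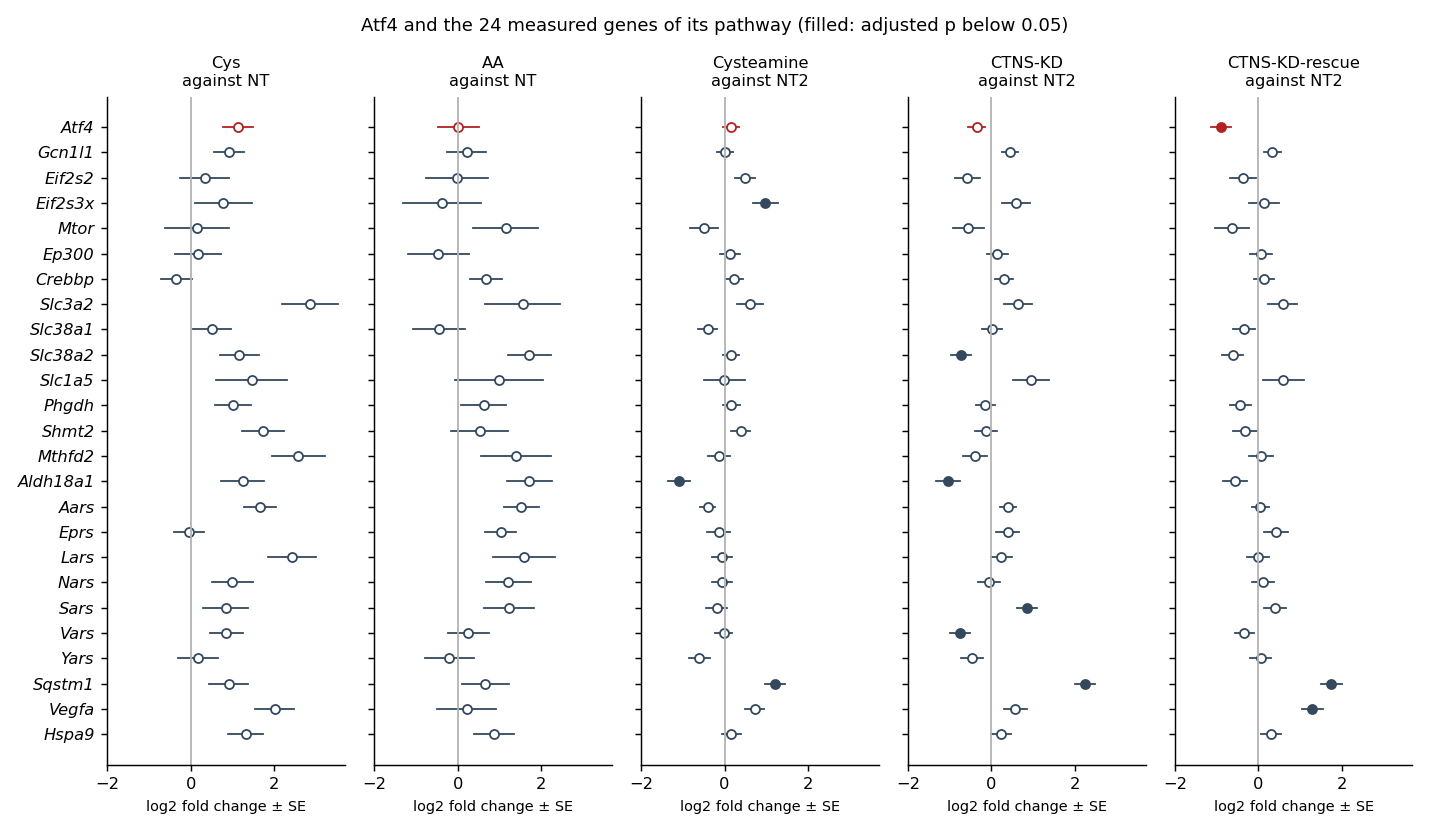
Log2 fold change (points) with SE (lines) of Atf4 (red, top row) and of the 24 listed genes of its pathway in the 5 comparisons with untreated cells; filled points have an adjusted p below 0.05. In Cys against NT most points lie right of 0 with none filled, and Sqstm1 is filled in each of the 3 panels of the second experiment, at 1.21, 2.24 and 1.75; the starvation points of Slc3a2, Slc1a5 and Mthfd2 rest on 3 or fewer NT counts.

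Counted together, 17 of the 18 target genes were above 0 in Cys against NT, with a median log2 fold change of 1.21 beside 0.01 over all transcripts, of which 50.8% were above 0. None passed with edgeR or limma, 11 had an unadjusted p under 0.05, and DESeq2 called 4 higher; with library totals 8 passed as higher beside 29 of 1399 transcripts, and without Cys replicate 2 5 passed beside 17. In AA against NT 16 were above 0, beside 57.5% of all transcripts, with a median of 1.02 beside 0.05. None passed with edgeR, DESeq2 or limma, and 6 had an unadjusted p under 0.05, although Atf4 itself stood at 0.02. The targets' median exceeded that of all transcripts by 1.20 in Cys and 0.97 in AA, and by 1.06 and 0.99 without tracking transcripts. These starvation values share the NT libraries, in which the targets have few counts, 3 or fewer in all for Slc3a2, Slc1a5 and Mthfd2. In the second experiment the targets did not move as 1 group. In Cysteamine 1 passed as higher and 1 as lower (5.5% and 5% of all transcripts). There 7 were above 0, beside 59.3% of all transcripts, with a median of -0.04 beside 0.13. In CTNS-KD 2 passed as higher and 3 as lower (17.6% and 13.2%), with a median of 0.12 beside 0.09. In CTNS-KD-rescue, where Atf4 fell, 2 passed as higher and none as lower (18.7% and 12.9%), 3 had an unadjusted p under 0.05, and the median was 0.06 beside -0.01. Under ribosomal protein scaling these counts became 0 higher and 4 lower, 5 and 0, and 4 and 0, while all transcripts called went to 13 higher and 238 lower, 350 and 69, and 411 and 36. The targets' median lay within 0.17 of that of all transcripts in the 3 groups under TMM.

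Relative to the response to Cys, the response to CTNS-KD was lower for 6 of the 18 targets and higher for none (7.15% and 12% of all transcripts), with a median difference of -1.22 beside -0.02. Aldh18a1 (-2.29 ± 0.58), Slc38a2 (-1.90 ± 0.53), Vars (-1.61 ± 0.46), Lars (-2.20 ± 0.65), Shmt2 (-1.88 ± 0.57) and Mthfd2, whose fitted value rests on 3 NT counts, passed, as did Atf4. Of the 14 fits that left out a library, each of the 6 lost its call in between 1 (Mthfd2) and 5 (Shmt2 and Lars). The median difference of the targets was -1.13 without Cys replicate 1, -1.02 without NT replicate 1 and -1.41 without Cys replicate 2. The count of targets called lower was 3 with limma and 2 without tracking transcripts. With library totals it was 12, beside 311 of 1399 transcripts, and the median of all transcripts moved from -0.02 to -0.87. For the response to Cysteamine 4 were lower, Aars (-2.07 ± 0.42, adjusted p = 0.0206), Aldh18a1, Lars and Mthfd2, and none higher (2.36% and 4.43% of all transcripts). All 4 calls were lost with limma and without NT replicate 1, Cys replicate 1, either NT2 library or Cysteamine replicate 1. Lars lost its call in 10 of the 14 fits, Mthfd2 in 8, Aldh18a1 in 6 and Aars in 5. With library totals 11 of the 18 were lower, beside 147 of 1399 transcripts, and the median of all transcripts moved from 0.09 to -0.74. Against the response to AA, the response to CTNS-KD was lower for Aldh18a1 (-2.76 ± 0.61) and Slc38a2 (-2.46 ± 0.56) and higher for none (1% and 0.214%), calls lost in 8 and 11 of the 14 fits and with limma. Under ribosomal protein scaling 20, 2 and 5 of 1399 transcripts were lower in the 3 differences, in the order given, and 246 were higher in the first. Of the 18 targets, 0 were lower in any of the 3 differences and 1 was higher in the first. NT enters all of these as the control of Cys or AA, with 63.8% and 86.9% of its counts in tracking transcripts, and their part in the result was not tested.

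Between the treated groups of the second experiment, 8 calls were made among the 24 pathway genes other than Atf4. In CTNS-KD against Cysteamine (10.1% of all transcripts higher, 14.7% lower) Sqstm1 (1.02 ± 0.23), Sars (1.03 ± 0.25) and Aars (0.80 ± 0.19) were higher and Slc38a2 (-0.88 ± 0.24), Vars (-0.73 ± 0.23) and Eif2s2 (-1.07 ± 0.29) lower. In CTNS-KD-rescue against Cysteamine (15.6% and 14.8%) no pathway gene was higher, and Slc38a2 (-0.77 ± 0.25) and Eif2s2 (-0.86 ± 0.30) were lower, as Atf4 was. Each of these calls was lost with limma and in at least 2 of the 14 fits that left out a library. Under ribosomal protein scaling, which moved the median of all transcripts from 0.07 to 0.86 in the first comparison and from 0.01 to 0.95 in the second, the 5 falls lost their calls, with values between -0.27 and 0.17. In CTNS-KD-rescue against CTNS-KD no pathway gene passed, and 1 of 24, Vegfa (0.72 ± 0.26, adjusted p = 0.324), had an unadjusted p under 0.05; it is named after its values were seen. Between the untreated groups (16% of all transcripts higher in NT, 8.36% lower), Aars was lower in NT (-1.39 ± 0.36, adjusted p = 0.0105) and Eprs higher (1.25 ± 0.36, adjusted p = 0.0187). Aars lost its call without NT replicate 1, with ribosomal protein scaling (-0.49) and without tracking transcripts (-0.94). The last is no independent check here, since NT over NT2 chose those transcripts. Eprs is a tracking transcript, chosen by its high share in NT over NT2, so its call is drawn from the same values. That call was lost without NT replicate 2 or NT2 replicate 1, and with library totals the log2 difference was -0.10.

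Markers of cell type moved in several comparisons, whether or not Atf4 did. Of the 10 listed fibroblast markers, 2 fell in Cysteamine against NT2 (8 of 10 below 0, beside 5% of all transcripts called lower), 7 fell in CTNS-KD against NT2 (beside 13.2%), and 5 fell and 1 rose in CTNS-KD-rescue against NT2 (beside 12.9% and 18.7%). They summed to 5.92% and 5.55% of counts in NT2, 3.11% and 3.23% in Cysteamine, 1.61% and 1.64% in CTNS-KD, and 2.44% and 2.49% in CTNS-KD-rescue. The largest fall in CTNS-KD was that of Col1a2, a fibrillar collagen chain, at -2.84 ± 0.35. Ctrb1, a pancreatic protease precursor, was higher by 4.38 ± 0.59 in CTNS-KD and 4.88 ± 0.58 in CTNS-KD-rescue. It took 0.0335% to 0.0512% of counts there, against 0.00181% and 0.00226% in NT2. Ttn rose by 1.60 ± 0.30 and 2.17 ± 0.29, and Cdh1 rose in CTNS-KD by 2.39 ± 0.73. All of them were also called higher in NT than in NT2, beside 16% of all transcripts. The values there were 4.97 (Ctrb1), 2.30 (Ttn) and 3.71 (Cdh1). By their shares in NT over NT2 they meet the rule of the tracking transcripts. In NT2 the lower library held 3 counts of Ctrb1 and 1 of Cdh1, and no alternative fit is given for these marker calls. In Cys against AA, Cdh1 (-2.81), Ctrb1 (-3.97) and Ttn (-2.05) were all lower, beside 12.4% of all transcripts, as was 1 fibroblast marker. In Cys against NT no marker passed. The part of these shifts in the Atf4 result was not tested.

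Likeness to Atf4 was described among the 896 transcripts with a mean count of at least 20, by the lower of 2 Pearson correlations of log2 CPM, over the 6 libraries of the first experiment and over the 8 of the second. The points share libraries, depth and scaling, and the values are descriptions. Srsf3, a splicing factor, came first (r = 0.89 and 0.90), followed by the actin-linked adaptor Cd2ap (0.93 and 0.88), the actin cross-linker Flnc (0.89 and 0.88), the focal adhesion protein Zyx (0.91 and 0.87), the prostacyclin synthase Ptgis (0.86 and 0.92), the chromatin protein Rbbp4 (0.85 and 0.97), the elongation factor Eef1a1 (0.84 and 0.91) and Rpl9-ps6, a ribosomal protein pseudogene whose reads may belong to its parent gene (0.84 and 0.94). None of these is in the 6 pathway lists. Like Atf4, Rbbp4 stood at 352 and 344 CPM in NT2 and 218 and 248 in CTNS-KD-rescue, and at 179 and 98.0 in NT against 215 and 250 in Cys. The 50 ribosomal protein transcripts had a median r of 0.57 and 0.85, against 0.36 and 0.21 over the 896. The 16 target genes with enough counts had a median r of 0.58 in the first experiment and -0.26 in the second. Shmt2 (0.92 and 0.64) and Phgdh (0.53 and 0.67) had the highest lower values among them, and Sqstm1 (0.61 and -0.55), Vegfa (0.60 and -0.63) and Hspa9 (0.83 and -0.65) were positive in the first and negative in the second.

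**Figure D4:**
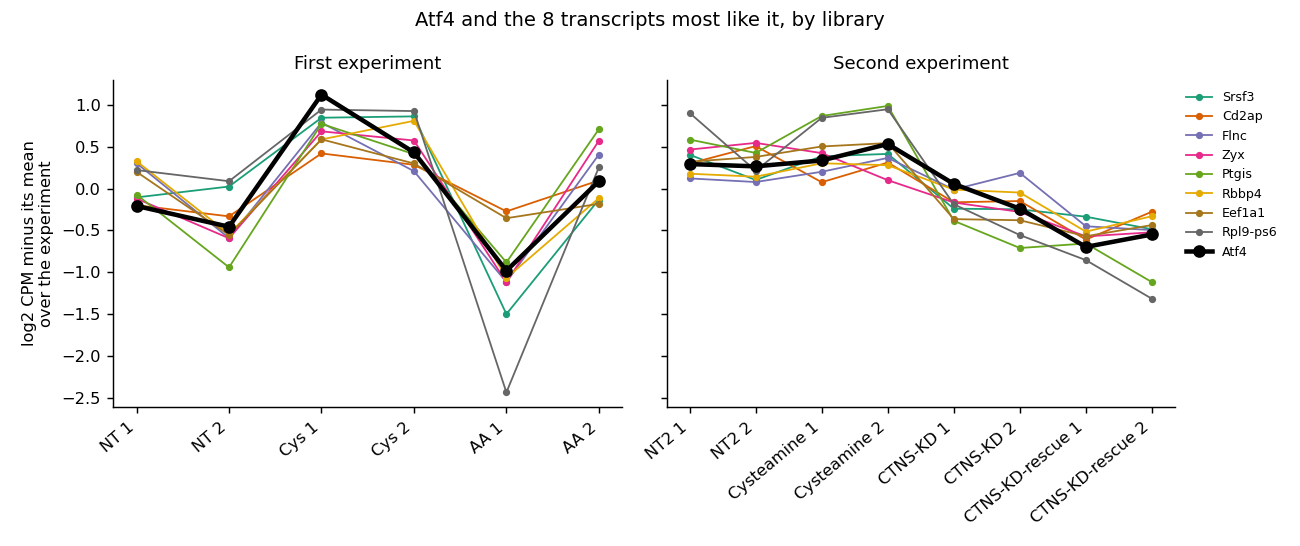
Log2 CPM of Atf4 (black) and of the 8 transcripts most like it (colours) in each library, with the mean over the libraries of that experiment subtracted; lines join libraries of a panel only to make a transcript easier to follow. All 9 were lowest or next to lowest in AA replicate 1 on the left and lower in CTNS-KD-rescue than in Cysteamine on the right.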

How the data were processed

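RNA was taken with TRIzol, selected on oligo(dT) beads, size-selected as short fragments, tailed, ligated and amplified, per the labels' protocols. Tools recorded in the submitters' processing notes are STAR 2.7.10a, Bowtie 1.2.3, cutadapt 2.8 and bcl2fastq 2.20.0.422, with the assembly GRCm39. How reads were counted, with which strand setting and annotation, is not given in the sources used here, so reads from antisense or near-identical copies may be included. The authors deposited 1 table per library of whole-number counts per Ensembl transcript; the tables are titled CPM, but the values are whole numbers with unequal totals, and were treated as raw counts. The 1399 transcripts appear kept for at least 1 count in every library, so totals are not sequencing depths and a loss to 0 cannot be seen. Counts within each group differed by more than counting noise (chi-square per degree of freedom 1.55 to 4.55).

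Symbols (1385 of 1399) and the Atf4 exon structure came from GENCODE M21 on GRCm38, promoters from RefSeq on GRCm38.p6, and no coordinate came from the count tables. In R 4.3.3, edgeR 4.0.16 (TMM, glmQLFit, glmQLFTest) fitted 7 group means to all 14 libraries, with 7 residual degrees of freedom and no filter. P-values are two-sided and adjusted by Benjamini-Hochberg over 1399 transcripts, with a threshold of 0.05; an adjusted p printed without a tool is edgeR's. The prior count of log2 CPM was 2, and limma used log2(CPM + 1). Alternatives were DESeq2 1.42.0 and its size factors, limma 3.58.1, library totals, ribosomal protein scaling, a mean count of at least 20, a fit without tracking transcripts, fits of 1 experiment, other untreated controls, a replicate block and leaving out each library. Where a group had 3 counts or fewer for a gene, the text gives for that comparison a ratio of shares of the TMM-scaled totals, with an exact interval of counting error, in place of the fold change.

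Atf4, the gene lists and the markers were chosen with earlier results of these data known. Named pathway genes are, in each list, those past the threshold, up to 8 by smallest p, and, where none of a list passed, the 2 with the smallest p, the latter in comparisons with an untreated group only. Lists were described by counts and medians. Counts of target genes under each alternative were added after the data were seen.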

Additional observations from a re-analysis of the deposited data

Results flagged for a closer look

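The change of Atf4 differed between treatments in 1 of the 3 tests of such a difference. Its change in CTNS-KD over NT2 was -0.36 ± 0.21 on the log2 scale and its change in Cys over NT was 1.14 ± 0.37; the difference was -1.49 ± 0.42 (adjusted p = 0.0204). The changes come from different experiments with different untreated groups. The call was lost under ribosomal protein scaling (-0.64, adjusted p = 0.285), with limma (adjusted p = 0.102), without tracking transcripts (adjusted p = 0.1) and in 5 of the 14 fits that left out a library; the sign stayed negative in all of these. Each group has 2 libraries, too few for a check of single libraries that stand apart.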

How the results depend on the processing

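Of 123 values of Atf4 under alternatives other than leaving out a library, 95 kept direction and side of the threshold, 9 lost the call, 7 gained one and 12 changed sign; the cause was not tested. With library totals only, Cys against NT was 1.83, Cys against AA 2.18, NT against NT2 -1.74 and the Cysteamine effect minus the Cys effect -1.82, all past the threshold. The median of all transcripts under this scaling was 0.70, 1.09, -1.42 and -0.74 in the same order. Of 1399 transcripts, 474 passed as higher in Cys against AA and 823 as lower in NT against NT2. AA against NT was -0.34 with library totals. With ribosomal protein scaling, values were -0.17 for AA against NT, -0.28 for Cysteamine, 0.0021 for CTNS-KD and -0.40 for CTNS-KD-rescue against NT2, 0.28 for CTNS-KD and -0.12 for CTNS-KD-rescue against Cysteamine, 0.40 for NT against NT2, -0.64 for the CTNS-KD effect minus the Cys effect and 0.17 for that minus the AA effect, none past the threshold. With limma, AA against NT was -0.11, and CTNS-KD-rescue against NT2 (-0.90), CTNS-KD-rescue against Cysteamine (-1.06) and the CTNS-KD effect minus the Cys effect (-1.48) no longer passed; the last also did not pass without tracking transcripts (-1.11). Within its own experiment, AA against NT was -0.096, and CTNS-KD against NT2 (-0.44) and against Cysteamine (-0.57) passed. With NT2 as the control, Cys was 0.67 and passed, and AA was -0.45; with NT and NT2, AA was -0.21 and CTNS-KD-rescue -0.67; with NT, CTNS-KD was 0.11 and CTNS-KD-rescue -0.44, neither call of CTNS-KD-rescue remaining. DESeq2, its size factors and a mean count of at least 20 changed no call or sign of Atf4.

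Leaving out 1 library gave 0.71 to 1.39 for Cys against NT, -0.71 to 0.36 for AA against NT, 0.68 to 1.85 for Cys against AA, 0.056 to 0.25 for Cysteamine, -0.52 to -0.22 for CTNS-KD and -0.98 to -0.85 for CTNS-KD-rescue against NT2. It gave -0.68 to -0.39 for CTNS-KD-rescue against CTNS-KD, -0.68 to -0.38 for CTNS-KD and -1.16 to -0.96 for CTNS-KD-rescue against Cysteamine, and -0.65 to -0.40 for NT against NT2. The effect differences ranged from -1.23 to -0.54 (Cysteamine minus Cys), -1.75 to -1.06 (CTNS-KD minus Cys) and -0.72 to 0.35 (CTNS-KD minus AA). The call of CTNS-KD minus Cys was lost on leaving out NT replicate 1 (adjusted p = 0.0904), NT replicate 2 (0.0501), Cys replicate 1 (0.132), NT2 replicate 1 (0.055) or CTNS-KD replicate 2 (0.0693), and CTNS-KD against Cysteamine passed without Cys replicate 1 (0.0443) or 2 (0.0434). A group left with 1 library was assumed to vary like the others.

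With the replicate number within each experiment as a replicate block, Cys against NT was 1.19 (adjusted p = 0.0806) and CTNS-KD-rescue against NT2 -0.91 (0.00469). The CTNS-KD effect minus the Cys effect was -1.54 (0.0139), and no call of Atf4 changed. Of the 18 targets, 5 rather than 0 passed as higher in Cys against NT. The block also gave calls over all transcripts there, more of them lower than higher, as counted above. The replicate numbers were not shown to pair libraries: deviations of same-numbered libraries correlated at -0.214 to 0.287 among NT, Cys and AA and at 0.092 to 0.281 among the other groups. The 4 to 13 counts of Atf4 in NT and AA limit what the first experiment can show.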
